A study of Mus musculus with 3 samples.

Results

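The nuclear genome encodes most subunits of the mitochondrial respiratory chain and of ATP synthase, and these genes were followed in single nuclei of the mouse abdominal aorta. Members were taken by symbol: Ndufa, Ndufb, Ndufc, Ndufs and Ndufv followed by a digit (complex I), Sdha to Sdhd (complex II), Uqcr (complex III), Cox4 to Cox8 (complex IV) and Atp5 (complex V, ATP synthase). Of 33696 gene features, 88 had such a symbol, and 82 of these reached the required 50 unique molecular identifiers (UMIs, each counting 1 captured RNA molecule) over the 3 deposited matrices. Complex I had 38 members, complex II 4, complex III 8, complex IV 15 and complex V 17. Ndufa4 was counted with complex I by its symbol, although its protein is listed with complex IV. Just inside the limit were Cox6a2 with 51 UMIs, Ndufa4l2 with 57 and Cox8b with 62. Just outside it were Cox7a1 with 33, Ndufb4b with 30, Cox7b2 with 17, Cox5b-ps with 5, and Cox8c and Ndufb11b with 1 each. The members were thus chosen by their summed UMIs and by no contrast between classes or libraries. Members near the limit could nevertheless reach it through a single class, and Cox8b and Cox6a2 did so. Of their 62 and 51 UMIs, 38 and 36 lay in nuclei named below as adipocyte-like and macrophage-like. That the genes would be described by cell class was decided with earlier results of these data known, so every value below is a description.

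Complexes I and II pass electrons from NADH and succinate to ubiquinone, complex III passes them to cytochrome c, and complex IV, cytochrome c oxidase, passes them to oxygen. Complexes I, III and IV pump protons, and ATP synthase uses the gradient to make ATP. Complexes I, III, IV and V also hold subunits encoded by mitochondrial DNA (the mt- genes), whereas complex II, which is also succinate dehydrogenase of the tricarboxylic acid cycle, is wholly nuclear. Brown adipocytes are rich in mitochondria and carry Ucp1, the uncoupling protein that lets protons return without ATP synthesis.

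Nuclei came from the abdominal aorta of ApoE-/- mice of the C57Bl/6 strain, which lack apolipoprotein E and develop atherosclerosis. All mice had been fed a high fat diet, and they had breathed room air or cigarette smoke for 20 weeks. The 3 groups were room air, smoke without an abdominal aortic aneurysm and smoke with one, called below the room air, smoke and aneurysm libraries. Each group is 1 library, the labels do not say how many animals it holds, and the ages of the mice are not stated. Every difference below is therefore a difference between libraries with no replicate check and no test, and an effect of the group cannot be told apart from one of the library. Intervals are exact 95% intervals (Poisson for a level, conditional binomial for a ratio, Clopper-Pearson for a share) and cover counting error only.

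After barcodes with fewer than 500 UMIs, fewer than 300 genes or at least 5% mt- UMIs were left out, 11022, 14001 and 5707 nuclei remained in the room air, smoke and aneurysm libraries. Their medians were 4058.5, 6225 and 1443 UMIs, so the aneurysm library is the shallowest. Genes of the mt- genome held 1.14%, 0.554% and 1.21% of UMIs, and the 84 cytosolic ribosomal protein genes (Rpl and Rps) were at 1928, 2814 and 1376 CPM (UMIs per 1000000 UMIs). The smoke library therefore stood apart in both. Kept barcodes shared by 2 libraries numbered 36, 26 and 17, and none was in all. Clusters were named from marker genes, none of them a member, and are written as "-like". Of 16 adipocyte markers, the summed level was 15138 to 19989 CPM in adipocyte-like nuclei and 434 to 2439 CPM in macrophage-, endothelial-, fibroblast- and smooth muscle-like nuclei. The 12 macrophage markers summed to 2998 to 4239 CPM in macrophage-like nuclei and to 283 to 712 CPM in adipocyte-like nuclei. Of the named clusters, those holding at least 30 nuclei in a library are described.

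Promoter sequences of 4 members are shown first, because motifs of factors known to bind such promoters recur among the members. Sdhd (ENSMUSG00000000171) and Atp5b (ENSMUSG00000025393) had some of the largest ratios of adipocyte-like over other nuclei, and Cox8b (ENSMUSG00000025488) and Cox8a (ENSMUSG00000035885) are an isoform pair whose shares differed between classes. Each window runs from 250 bases before to 50 bases after a gene's start, 5′ to 3′ on the gene's strand, taken from RefSeq with the GRCm38.p6 build. Capitals mark a match on either strand to the palindrome of nuclear respiratory factor 1 (NRF1), CCGGAAG (the ETS family, which includes GABP), TCAAGGTCA (oestrogen-related receptors, ERR) or AANATGGC (YY1). The Sdhd window is chr9:50603800-50604099, minus strand. The Atp5b window is chr10:128083057-128083356, plus strand. The Cox8b window is chr7:140900397-140900696, minus strand, and the Cox8a window is chr19:7217567-7217866, minus strand.
Sdhd: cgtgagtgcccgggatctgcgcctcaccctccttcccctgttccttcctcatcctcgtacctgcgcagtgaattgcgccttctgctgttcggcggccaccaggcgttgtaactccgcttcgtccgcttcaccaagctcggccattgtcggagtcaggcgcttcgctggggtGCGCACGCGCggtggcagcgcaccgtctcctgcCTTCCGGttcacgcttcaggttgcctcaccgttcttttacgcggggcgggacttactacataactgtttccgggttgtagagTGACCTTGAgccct
Atp5b: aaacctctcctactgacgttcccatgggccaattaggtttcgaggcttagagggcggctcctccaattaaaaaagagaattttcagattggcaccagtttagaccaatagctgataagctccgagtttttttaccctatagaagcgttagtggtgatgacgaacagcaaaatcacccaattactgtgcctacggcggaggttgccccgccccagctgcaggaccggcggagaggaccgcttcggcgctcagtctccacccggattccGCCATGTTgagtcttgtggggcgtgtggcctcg
Cox8b: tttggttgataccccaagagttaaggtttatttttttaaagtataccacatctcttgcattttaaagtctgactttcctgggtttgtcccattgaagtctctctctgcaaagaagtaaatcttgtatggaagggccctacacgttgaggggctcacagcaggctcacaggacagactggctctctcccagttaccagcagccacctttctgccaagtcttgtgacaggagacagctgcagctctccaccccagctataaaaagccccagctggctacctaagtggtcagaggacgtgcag
Cox8a: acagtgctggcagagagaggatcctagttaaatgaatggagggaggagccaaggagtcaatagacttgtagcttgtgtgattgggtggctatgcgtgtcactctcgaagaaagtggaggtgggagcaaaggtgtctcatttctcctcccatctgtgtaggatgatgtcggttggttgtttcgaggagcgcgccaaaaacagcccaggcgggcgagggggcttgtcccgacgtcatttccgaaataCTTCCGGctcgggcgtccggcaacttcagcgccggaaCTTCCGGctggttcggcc

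The Sdhd window holds 1 NRF1 match beginning 79 bases before the start, 1 ETS match 46 bases before it and 1 ERR match 37 bases after it. Atp5b has a single YY1 match, 18 bases after the start. Cox8a has ETS matches 5 bases before and 33 bases after the start, whereas no match was found in the window of its isoform Cox8b. The windows of Ndufb3 and Uqcrfs1, not printed, had none either. Of the 82 members, 67 were found in the promoter table, with 72 windows. An NRF1 match was present in 25% of these, against 4.6% of all 32851 windows of the table. ETS matches were in 23.6% against 8.86%, YY1 matches in 23.6% against 6.05%, and ERR matches in 2.78% against 0.423%. The ERR share of the members rests on 2 windows, 1 of them that of Sdhd. At least 1 of the 4 motifs was in 62.5% of member windows and in 17.8% of all windows. Base composition differed as well. Of all windows over 60% G and C, 11% held NRF1, 16.5% ETS, 6.79% YY1 and 0.149% ERR, and 29.4% held at least 1 motif. The median member window was 58.0% G and C. In the windows of Rpl and Rps genes the same shares were 7.79% for NRF1, 35.1% for ETS, 22.1% for YY1 and 0% for ERR. At least 1 motif was in 61.0% of these, near the share of member windows. By complex, YY1 matches were in 12 of 35 complex I windows (34.3%), 4 of 18 of complex V (22.2%), 1 of 11 of complex IV (9.09%) and none of the 3 of complex II and 5 of complex III. A match is a description of letters and does not show that a factor binds.

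In kept nuclei the members held 232267 UMIs, 1180 CPM over all libraries, and a few long genes held much of this. In nuclear RNA, unspliced transcripts of long genes can contribute many UMIs where introns are counted, a setting not stated for these data. CPM per kb of gene span (GENCODE M21) is therefore given beside CPM for some members. Ndufs4, an accessory subunit of complex I with a span of 100 kb, was at 129, 133 and 138 CPM in the room air, smoke and aneurysm libraries and held 11.2% of member UMIs, but only 1.31 CPM per kb. Cox7c, a small subunit of complex IV with a span of 2.09 kb, had 28.7, 39.5 and 23.4 CPM, or 16.6 CPM per kb, the highest of the 82. The median member spans 7.24 kb, against 21.8 kb over all genes with at least 20 UMIs, and 10 members over 20 kb held 37.6% of member UMIs. Of the members, 28 overlap another annotated gene, and their UMIs could include those of the neighbour where strand was not used in counting.

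By complex, complex I held 42.8% of the member UMIs, complex II 11.3%, complex III 8.86%, complex IV 15.2% and complex V 21.9%. After Ndufs4, the complex I members with the highest CPM were Ndufs1, the largest subunit, at 47.2 CPM, and Ndufv2 of the NADH-oxidising module at 34.2 CPM. Per kb they were close to Ndufs4, at 1.42 and 1.49 CPM. Complex II was led by its flavoprotein Sdha with 66.3, 66.7 and 92.0 CPM in the room air, smoke and aneurysm libraries, followed by the iron-sulphur subunit Sdhb at 31.6 CPM and the membrane anchor Sdhc at 27.2 CPM over all libraries. In complex III the leading members were the core proteins Uqcrc2 at 38.9 CPM and Uqcrc1 at 14.5 CPM, and the hinge protein Uqcrh at 18.9 CPM. Cox4i1 and Cox7a2l followed Cox7c in complex IV, at 23.4 and 21.4 CPM. Per kb, Cox8a at 5.85 CPM was above both, at 3.91 and 1.39 CPM. ATP synthase was led by its rotor subunit Atp5c1 at 44.2 CPM, its catalytic-head subunit Atp5a1 at 3.28 CPM per kb, and Atp5l of the membrane part at 27.6 CPM. Sdha was thus higher in the aneurysm library than in the others before cell classes were separated, whereas Cox7c was lowest there.

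Among named classes of at least 30 nuclei, adipocyte-like nuclei had the highest summed level of the members in each library. The unnamed cluster 3, led by Igkc and Cbx7, was above them in room air and smoke, at 1658 and 2605 CPM. In aneurysm it was below them, at 1234 CPM. The 38 adipocyte-like nuclei of the room air library were at 1538 CPM (1382 to 1708), the 205 of the smoke library at 2443 CPM (2372 to 2515) and the 1233 of the aneurysm library at 2652 CPM (2588 to 2718). T or NK-like nuclei followed among the named classes, at 1474 CPM in room air and 1549 CPM in smoke. In room air the intervals of these classes overlapped, 1382 to 1708 CPM for adipocyte-like and 1370 to 1583 CPM for T or NK-like nuclei. Monocyte-like nuclei had 1219, 1491 and 1465 CPM in the 3 libraries. Without smoke and with it, dendritic-like nuclei had 1266 and 1437 CPM and B cell-like nuclei 1118 and 1457 CPM.

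Macrophage-like nuclei, the most abundant class in room air and smoke, were at 1134 CPM in room air, 1231 CPM in smoke and 1022 CPM in aneurysm. Endothelial-like nuclei were at 994, 1189 and 941 CPM. Smooth muscle-like nuclei, at 829, 962 and 851 CPM, and fibroblast-like nuclei, at 812, 999 and 964 CPM, were lowest in room air and smoke. Smooth muscle-like and fibroblast-like nuclei had overlapping intervals in room air (806 to 853 and 772 to 854 CPM). Adipocyte-like nuclei were 0.345%, 1.46% and 21.6% of kept nuclei in the room air, smoke and aneurysm libraries. How much of the surrounding fat came with each aorta is not given, and nuclei were purified with anti-nucleus beads, so these shares are not read as tissue composition.

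**Figure D1:**
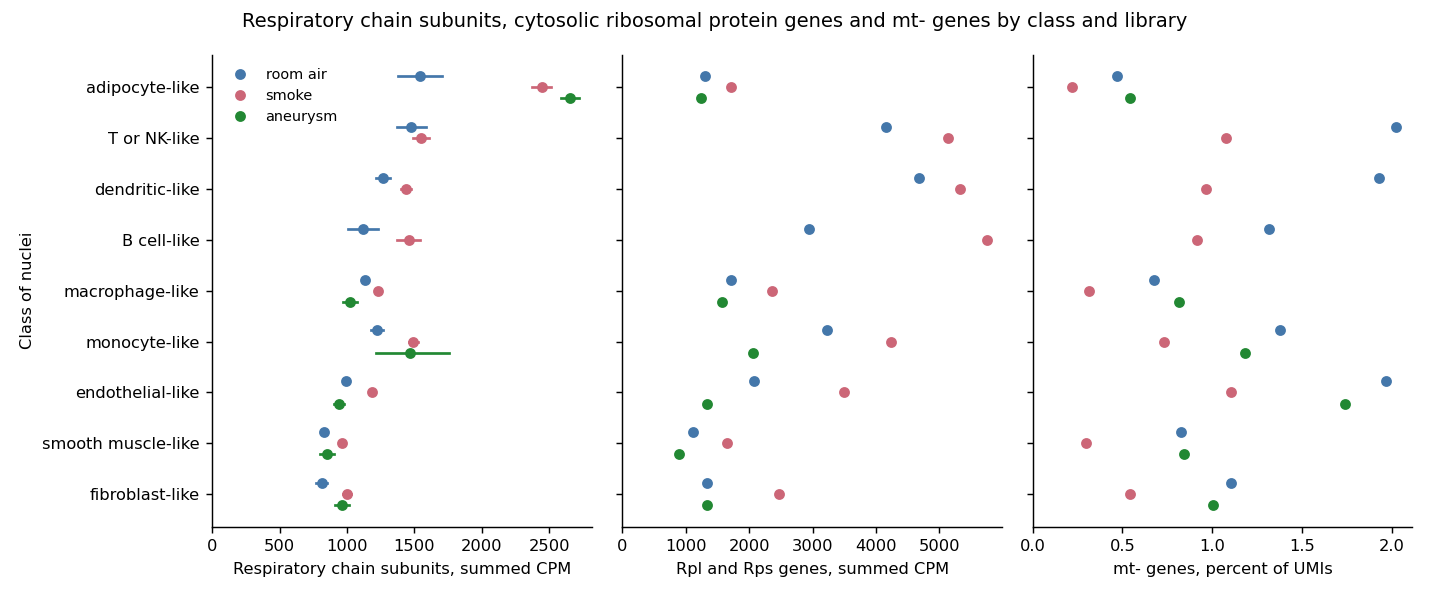
Summed CPM of the 82 subunit genes, summed CPM of the 84 Rpl and Rps genes, and mt- genes as percent of UMIs, for each named class (rows) and library (colours) with at least 30 nuclei; lines are 95% Poisson intervals of the subunit level. Adipocyte-like nuclei of the smoke and aneurysm libraries sit at 2443 and 2652 CPM, to the right of every other class drawn, while their Rpl and Rps levels are 1714 and 1242 CPM and their mt- shares 0.217% and 0.542%.

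Within the smoke library, the summed level of all 82 members in adipocyte-like nuclei was 1.98 times that in macrophage-like nuclei (1.93 to 2.05), 2.05 times that in endothelial-like (1.99 to 2.12), 2.45 times that in fibroblast-like (2.34 to 2.55) and 2.54 times that in smooth muscle-like nuclei (2.45 to 2.63). In the aneurysm library the ratios were 2.59 (2.45 to 2.74), 2.82 (2.69 to 2.96), 2.75 (2.59 to 2.92) and 3.12 (2.92 to 3.33) in the same order. Each comparison is between nuclei of 1 library. Median UMIs were 7931 in adipocyte-like nuclei of smoke, against 8182, 8729.5, 4433 and 9370.5 in the same order of classes, and 1448 in those of aneurysm, against 1519, 2440, 1204.5 and 1599. With each nucleus thinned to 500 UMIs, the median log2 ratio of the members over macrophage-like nuclei was 0.90 in smoke (53 members) and 1.48 in aneurysm (32 members). Room air had too few adipocyte-like nuclei (under 50) to be compared gene by gene.

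A gene was compared where both classes together had at least 20 UMIs of it, a limit that a gene can pass through its higher class alone. Over macrophage-like nuclei of the smoke library, 54 of 78 members compared were at least 1.5-fold higher and 1, Ndufa1, was at least 1.5-fold lower, against 31.1% and 29.5% of all genes compared. Their median log2 ratio was 0.93, against -0.01 over all genes. In the aneurysm library 62 of 71 were higher and none lower, against 30.7% and 33% of all genes, with a median of 1.45. Over endothelial-like nuclei, 49 of 77 were higher in smoke (28.4% of all genes) and 65 of 74 in aneurysm (32.1%). Lower in smoke were 3, Atp5e, Ndufb11 and Ndufa1, against 28.6% of all genes. Over fibroblast-like nuclei, 61 of 75 were higher in smoke (26.5% of all genes) and 65 of 72 in aneurysm (29%). Over smooth muscle-like nuclei, 67 of 78 were higher in smoke (32.7%) and 65 of 70 in aneurysm (35.6%), and 1 was lower in smoke, Cox4i2. Over the blood-derived classes of the smoke library the shares were smaller: 42 of 76 members over monocyte-like (30.1% of all genes), 43 of 77 over dendritic-like (30.7%), 35 of 75 over T or NK-like (26%) and 39 of 68 over B cell-like nuclei (29%) were at least 1.5-fold higher. Lower were 10 (33.9% of all genes), 9 (34.4%), 4 (36.6%) and 7 (33.8%), the 4 being Ndufa13, Ndufb1, Ndufb11 and Ndufa1.

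Members of each complex took part. Over macrophage-like nuclei of the smoke library, summed complex I went from 509 to 1037 CPM, complex II from 148 to 281, complex III from 103 to 229, complex IV from 199 to 336 and complex V from 272 to 560 CPM. The ratios were 2.04, 1.90, 2.22, 1.69 and 2.06. In the aneurysm library the ratios over macrophage-like nuclei were 2.48, 2.53, 3.16, 2.38 and 2.80. Complex IV thus had the smallest ratio in both libraries against this class. Against endothelial-like nuclei of the aneurysm library, however, complex IV had the largest, at 3.73, from 90.2 to 337 CPM.

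Of the 68 members compared in all 8 settings (4 other classes in 2 libraries), 42 were at least 1.5-fold higher in adipocyte-like nuclei in every one (12.5% of the 9396 genes compared in all 8) and 59 were above 1 in every one (25%). The members named next were chosen after their values were seen. Atp5a1 was at 95.8 CPM in adipocyte-like nuclei of the smoke library and 105 CPM in the aneurysm library, and at 18.3 to 32.5 CPM in the 4 other classes of these libraries. Its ratios ran from 2.95 to 5.74. Atp5b, the catalytic beta subunit, was at 62.6 and 72.7 CPM, against 13.1 to 22.7 CPM in the other classes. Sdhd, the small membrane anchor of complex II, was at 17.4 and 24.8 CPM in adipocyte-like nuclei and at 2.83 to 5.97 CPM elsewhere, with ratios of 2.92 to 8.75. In complex I, Ndufs3 was at 62.6 and 79.7 CPM against 16.6 to 29.3 CPM, and Ndufb3 at 26.7 and 32.2 CPM against 6.53 to 10.9 CPM. The Rieske protein Uqcrfs1 of complex III was at 14.2 and 14.0 CPM against 1.68 to 5.37 CPM, and Cox7b of complex IV at 39.7 and 33.9 CPM against 6.71 to 12.4 CPM. For each of these 7 genes the lowest adipocyte-like value lay above the highest value of the other 4 classes.

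A smaller group of members was not higher. Ndufa1, a small membrane subunit of complex I, was at 3.81 and 2.89 CPM in adipocyte-like nuclei of the smoke and aneurysm libraries and at 1.21 to 6.75 CPM in the 4 other classes. Atp5g1, 1 of 3 genes for the same c-ring subunit of ATP synthase, was at 4.35 and 2.48 CPM, against 0 to 6.51 CPM. Its partner gene Atp5g3 was at 18.5 and 31.0 CPM against 5.03 to 8.02 CPM, and so was higher than in every other class, while Atp5g2 was at 31.0 and 19.0 CPM against 10.9 to 24.2 CPM and overlapped them. Ndufa2 was at 8.71 and 5.37 CPM against 2.52 to 8.31 CPM, and Ndufa13 at 8.16 and 4.96 CPM against 0.713 to 10.3 CPM, with 1 of 6 ratios past 1.5. Members without a comparison because of low UMIs were Cox6a2, Cox6b2 and Ndufa4l2.

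**Figure D2:**
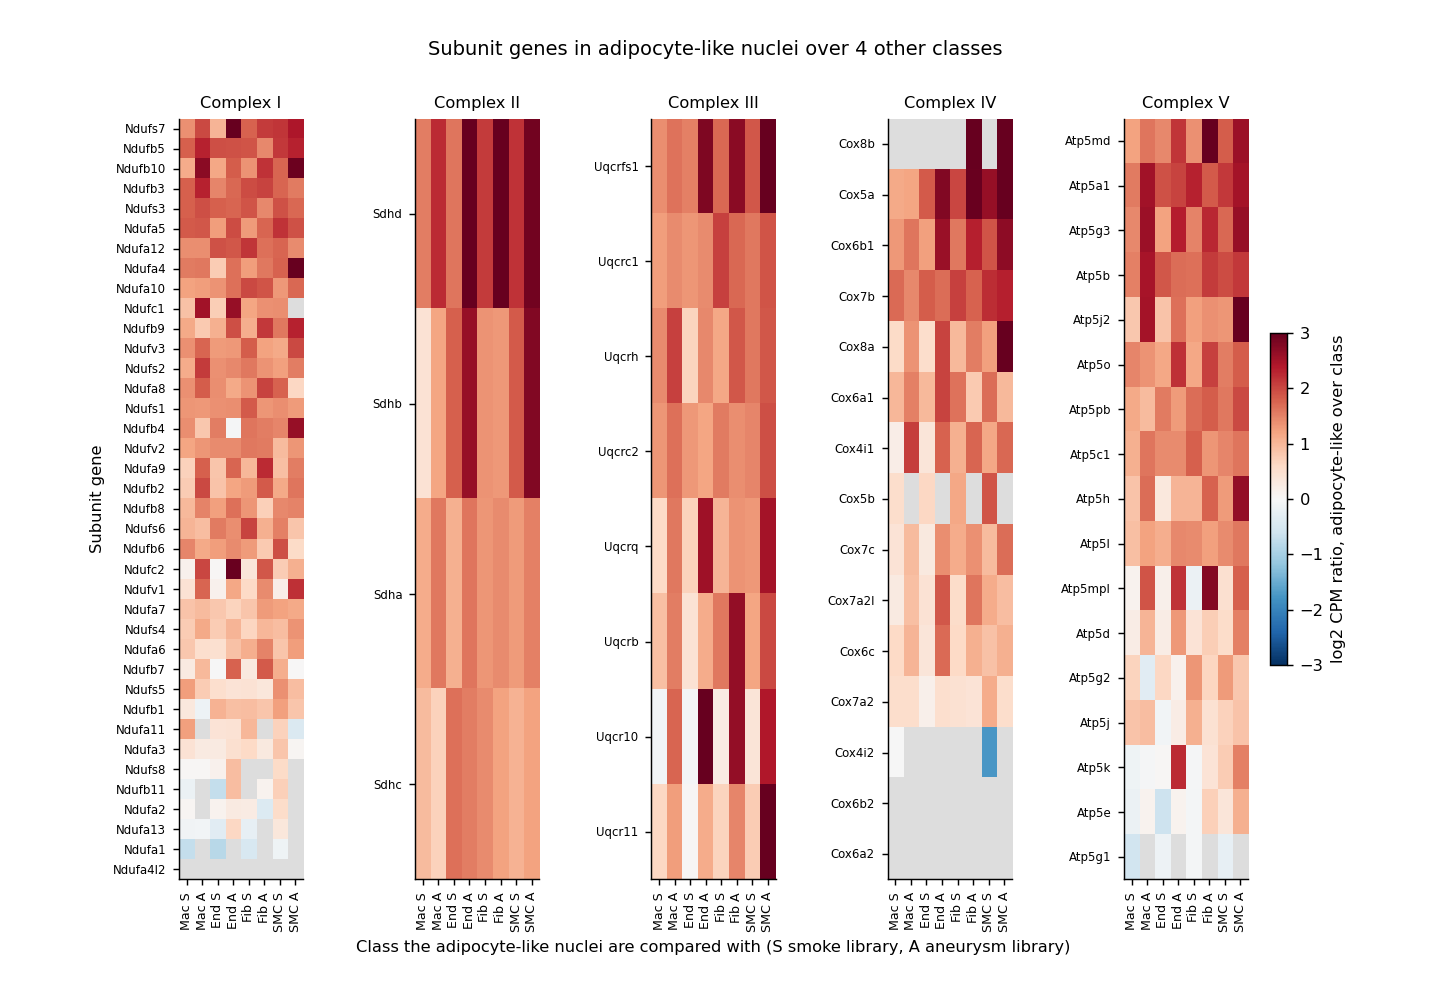
Log2 CPM ratio of each subunit gene (rows, by complex) in adipocyte-like nuclei over macrophage- (Mac), endothelial- (End), fibroblast- (Fib) and smooth muscle-like (SMC) nuclei of the smoke (S) and aneurysm (A) libraries (columns); grey cells had fewer than 20 UMIs, and the colours end at 3. Red cells, higher in adipocyte-like nuclei, fill most rows, and the pale or blue rows include Ndufa1, Ndufa2, Ndufa13 and Atp5g1.

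Other genes of oxidative metabolism were higher in the adipocyte-like nuclei. Of the 13 tricarboxylic acid cycle genes, all 13 were at least 1.5-fold higher over macrophage-like nuclei of the smoke library and 12 in the aneurysm library, with median log2 ratios of 1.63 and 1.93. Citrate synthase, Cs, was at 53.0 CPM in macrophage-like and 248 CPM in adipocyte-like nuclei of the smoke library, and at 65.9 and 403 CPM in those of the aneurysm library. Of the electron carrier and ubiquinone synthesis genes, 12 of 17 compared in smoke and 11 of 15 in aneurysm were higher, led by Coq8a with 2.14 against 90.4 CPM in smoke. Glycolysis genes were also higher, 10 of 15 and 11 of 15, and 1 and 2 of them were lower. Hk2 was higher (67.0 against 677 CPM in smoke), while Hk3, a hexokinase of myeloid cells, was lower (185 against 36.5 CPM). Assembly factors differed less, with median log2 ratios of 0.54 and 0.52.

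The coactivator Ppargc1b was at 55.9 CPM in macrophage-like and 1347 CPM in adipocyte-like nuclei of the smoke library. It is 1 of 13 regulator genes followed, and not all were higher. From B cell-like to adipocyte-like nuclei of that library, Nrf1 went from 263 to 175 CPM and Yy1 from 131 to 92.5 CPM. Polrmt went from 6.42 to 23.9 CPM. Ppargc1a and Esrrg, other known regulators of the subunit genes, are among the markers that named the class. So are Ucp1, Cidea, Elovl3 and Dio2, and the levels of these markers are no result. By contrast, none of the 13 mt- encoded subunits was at least 1.5-fold higher over macrophage-like nuclei, and 4 in smoke and 5 in aneurysm were lower, with median log2 ratios of -0.52 and -0.54. The Rpl and Rps genes had medians of -0.48 and -0.45. The nuclear-encoded subunits thus had positive medians where both of these lists had negative ones.

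Clusters 13 and 16 held nearly all of the adipocyte-like class, and the members were higher in cluster 16. Cluster 13, led by Car3, Scd1 and Cidec, genes of lipid storage and synthesis, held 34, 97 and 667 nuclei in the room air, smoke and aneurysm libraries. Cluster 16, led by Ppara, Esrrg and Cidea and including Ucp1 among its first 10 genes, held 2, 99 and 557. Cluster 27 had 20 nuclei in all. In cluster 13 the members summed to 1556 CPM in room air, 1515 CPM in smoke and 2120 CPM in aneurysm. In cluster 16 they summed to 3251 CPM in smoke and 3567 CPM in aneurysm, 2.15 times (2.01 to 2.30) and 1.68 times (1.60 to 1.77) the level in cluster 13 of the same library. Cluster 13 of the room air and smoke libraries was thus near the level of T or NK-like nuclei, and cluster 16 was above every named class.

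In the smoke library, 45 of 58 members compared were at least 1.5-fold higher in cluster 16 than in cluster 13 and none was lower, against 23.5% and 17.8% of all genes. In the aneurysm library 49 of 64 were higher and none lower, against 21.5% and 16%. Atp5a1 was at 34.2 CPM in cluster 13 and 149 CPM in cluster 16 in smoke (ratio 4.37, 2.88 to 6.86), and at 79.3 and 147 CPM in aneurysm (1.86, 1.44 to 2.40). Ndufs4 was at 132 and 304 CPM in smoke and at 204 and 302 CPM in aneurysm. Cox7a2l, a factor of complex III and IV supercomplexes, was at 18.8 CPM in cluster 13 and 68.1 CPM in cluster 16 of the aneurysm library (3.62, 2.28 to 5.88). For these 3 genes cluster 16 was above cluster 13 in both libraries. All 5 complexes had higher sums in cluster 16, by 1.9 to 2.49 times in smoke and 1.63 to 1.98 times in aneurysm. Summed tricarboxylic acid cycle genes were 3.30 and 2.00 times higher. Rpl and Rps genes had median log2 ratios of -0.06 and 0.05, and the mt- encoded subunits of -0.10 and 0.42.

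**Figure D3:**
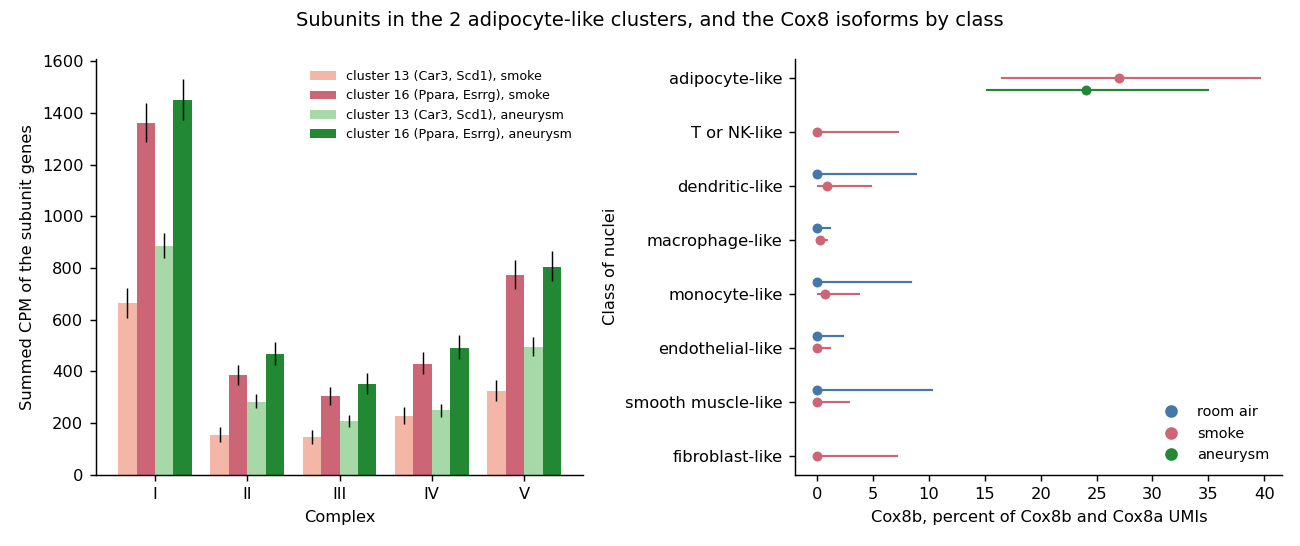
Left, summed CPM of the subunit genes of each complex in the adipocyte-like clusters 13 and 16 of the smoke and aneurysm libraries, with 95% Poisson intervals. Right, Cox8b as percent of Cox8a and Cox8b UMIs by class and library, with 95% Clopper-Pearson intervals, for classes with at least 20 UMIs of the pair; cluster 16 bars exceed those of cluster 13 in every complex, and Cox8b exceeds 20% only in adipocyte-like nuclei.

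Subunits with tissue-restricted isoforms were rare but unevenly placed. Cox8b is an isoform of a small complex IV subunit known from brown fat, heart and skeletal muscle. It had 54 UMIs in kept nuclei, and 38 of these (70.4%) lay in adipocyte-like nuclei, which held 2.28% of all UMIs. Cox8b passed the limit of 50 UMIs only through these nuclei, so its placement is a description and gives no support beyond that. It made up 27.0% of Cox8a and Cox8b UMIs (16.6 to 39.7%) in adipocyte-like nuclei of the smoke library and 24.1% (15.1 to 35.0%) of those of the aneurysm library. In macrophage-like nuclei it was 0 of 323 in room air, which allows a share of up to 0.929%, and 0.230% (0.0278 to 0.827%) in smoke. Endothelial-like nuclei had none among 331 UMIs in smoke, which allows up to 0.906%. Outside adipocyte-like nuclei, cluster 4 (led by Grin2a, unnamed) held the most, 7 of the 54 Cox8b UMIs, with 8.49% of all UMIs. Of these, 6 were in the aneurysm library, 28.6% of its Cox8a and Cox8b UMIs there (11.3 to 52.2%), against none beside 102 Cox8a UMIs in smoke, which allows up to 2.94%, and 2.63% (0.0666 to 13.8%) in room air. Between the adipocyte-like clusters, Cox8b was at 5.07 CPM in cluster 13 and 13.7 CPM in cluster 16 of the smoke library (2.70, 0.83 to 11.4) and at 4.71 and 13.4 CPM in aneurysm (2.85, 1.03 to 8.54). Cox7a1, a restricted isoform that missed the UMI limit, had 31 UMIs in kept nuclei, 7 of them in adipocyte-like and 7 in macrophage-like nuclei.

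Cox4i2, the isoform of complex IV subunit 4 known from lung, had its highest share of the pair in smooth muscle-like nuclei among classes with at least 30 UMIs of the pair. It was 12.1% of Cox4i1 and Cox4i2 UMIs there in room air (5.38 to 22.5%), 20.6% in smoke (15.4 to 26.6%) and, on 19 UMIs of the pair, 31.6% in aneurysm (12.6 to 56.6%), with intervals that overlap. In macrophage-like nuclei the share was 1.62% in room air and 3.85% in smoke, and in endothelial-like nuclei 1.56% and 1.06%. Smooth muscle-like nuclei held 31.5% of its 184 UMIs and 9.78% of all UMIs. Cox6b2 was spread over several classes, with 21.5% of its 135 UMIs in macrophage-like and 19.3% in endothelial-like nuclei. Of Cox6a2, 36 of 51 UMIs (70.6%) were in macrophage-like nuclei, and it passed the UMI limit only through them. This gene also overlaps Itgad, and UMIs of the 2 cannot be told apart here. Ndufa4l2, a paralogue of Ndufa4, had 48 UMIs, 14 in cluster 4, 11 in smooth muscle-like and 10 in fibroblast-like nuclei, and it overlaps Shmt2.

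Set beside room air, the smoke library had somewhat higher levels of the members in each class with at least 50 nuclei in both. The summed level went from 1134 to 1231 CPM in macrophage-like nuclei (ratio 1.09, 1.07 to 1.10), from 994 to 1189 CPM in endothelial-like (1.2, 1.17 to 1.22), from 829 to 962 CPM in smooth muscle-like (1.16, 1.12 to 1.2) and from 812 to 999 CPM in fibroblast-like nuclei (1.23, 1.16 to 1.31). In the blood-derived classes the ratios were 1.22 (1.17 to 1.28) for monocyte-like, 1.14 (1.08 to 1.19) for dendritic-like, 1.05 (0.97 to 1.14) for T or NK-like and 1.30 (1.16 to 1.46) for B cell-like nuclei. The interval for T or NK-like nuclei includes 1.

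In macrophage-like nuclei 13 of 80 members compared were at least 1.5-fold higher in smoke and none lower, against 10.8% and 5.12% of all genes, a share of members near the background. In endothelial-like nuclei 28 of 78 were higher (14.3% of all genes), in fibroblast-like 32 of 71 (17.2%), in smooth muscle-like 23 of 79 (13.6%) and in monocyte-like 22 of 76 (12.6%). None was lower in the first 2 of these (3.28% and 5% of all genes), 1 was lower in smooth muscle-like nuclei, Ndufb6 (4.22%), and 2 in monocyte-like nuclei, Ndufb3 and Ndufb6 (5.87%). Dendritic-like nuclei had 16 of 77 higher (11.8%), with Ndufb3 and Atp5k lower (5.35%), and B cell-like nuclei 13 of 27 (21.9%), with Ndufv2 lower (12.3%). T or NK-like nuclei had 9 of 59 in each direction, against 15.9% higher and 10.7% lower. Of 27 members compared in all 8 classes, Atp5c1, Cox4i1, Cox7c, Cox6c and Cox8a were above 1 in every class (8.33% of the 6496 genes compared in all 8). The median log2 ratio in B cell-like nuclei, 0.46 over 27 members, was below 0 with a gene minimum of 100 UMIs or with nuclei thinned to 500 UMIs, which left 1 and 2 members.

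By complex, the ratio of complex IV was the largest in macrophage-, endothelial-, fibroblast- and smooth muscle-like nuclei, and that of complex II the smallest in the first 3. In endothelial-like nuclei complex IV went from 132 to 193 CPM (1.46, 1.38 to 1.54) and complex II from 108 to 111 CPM (1.03, 0.96 to 1.09). In fibroblast-like nuclei complex IV went from 85.4 to 142 CPM (1.66, 1.39 to 1.99), and complex II from 110 to 107 CPM. In macrophage-like nuclei the ratios were 1.18 (1.14 to 1.22) and 1.01 (0.97 to 1.05). Cox5b, a peripheral subunit of complex IV, was at 3.03 and 7.44 CPM in endothelial-like nuclei of the room air and smoke libraries (2.45, 1.75 to 3.50) and at 4.15 and 7.99 CPM in macrophage-like nuclei (1.92, 1.58 to 2.36). Uqcr11 of complex III was at 2.70 and 7.49 CPM in endothelial-like nuclei (2.77, 1.95 to 4.03), and the complex I subunits Ndufb11 and Ndufa11 were 2.62 and 2.70 times higher there. In macrophage-like nuclei Atp5d, the delta subunit of ATP synthase, was at 4.02 and 8.43 CPM (2.10, 1.72 to 2.57) and Atp5g1 at 3.07 and 6.51 CPM (2.12, 1.68 to 2.68). Cox4i2 was at 0.348 and 1.10 CPM (3.15, 1.63 to 6.66). Monocyte-like nuclei had Cox4i1 at 24.6 and 49.9 CPM (2.03, 1.52 to 2.76). In smooth muscle-like nuclei Cox7c was at 16.2 and 26.9 CPM (1.66, 1.32 to 2.11). Fibroblast-like nuclei had Cox5a at 4.30 and 11.7 CPM (2.72, 1.27 to 6.66). In dendritic-like nuclei Ndufs7, an iron-sulphur subunit of complex I, had 2 and 41 UMIs, or 1.05 and 9.58 CPM (9.15, 2.38 to 78.1).

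Other transcripts moved with this. The Rpl and Rps genes were higher in smoke in every class named above, with median log2 ratios from 0.19 in dendritic-like to 1.04 in B cell-like nuclei, and their sum went from 2070 to 3503 CPM in endothelial-like nuclei. The mt- encoded subunits were lower, 13 of 13 by at least 1.5-fold in macrophage-, endothelial-, fibroblast- and smooth muscle-like nuclei, with medians of -1.12, -0.86, -1.06 and -1.5. The tricarboxylic acid cycle genes had medians of 0.00 in macrophage-like and 0.05 in endothelial-like nuclei. Median depth also differed, 5249 against 8182 UMIs in macrophage-like nuclei. The part of these differences in the levels of the members was not tested.

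Short members had larger ratios than long ones in the macrophage-like and wall classes. Across the 80 members compared in macrophage-like nuclei, Spearman's correlation between gene span and the log2 ratio of smoke over room air was -0.66, against -0.20 across all genes. It was -0.66 in endothelial-like, -0.55 in fibroblast-like and -0.53 in smooth muscle-like nuclei, against -0.24, -0.10 and -0.21 across all genes. In monocyte-like nuclei it was -0.25 for members and for all genes alike, in dendritic-like -0.21 against -0.14, in T or NK-like -0.19 against -0.09 and in B cell-like nuclei -0.43 against -0.16. These are correlations across genes, which are not independent, and all points of a class share 2 libraries. In endothelial-like nuclei the median log2 ratio was 0.71 for 24 members under 5 kb and 0.03 for 9 members of 20 to 50 kb. Over all genes of these spans it was 0.37 and 0.06, and for 64 Rpl and Rps genes under 5 kb it was 0.83.

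**Figure D4:**
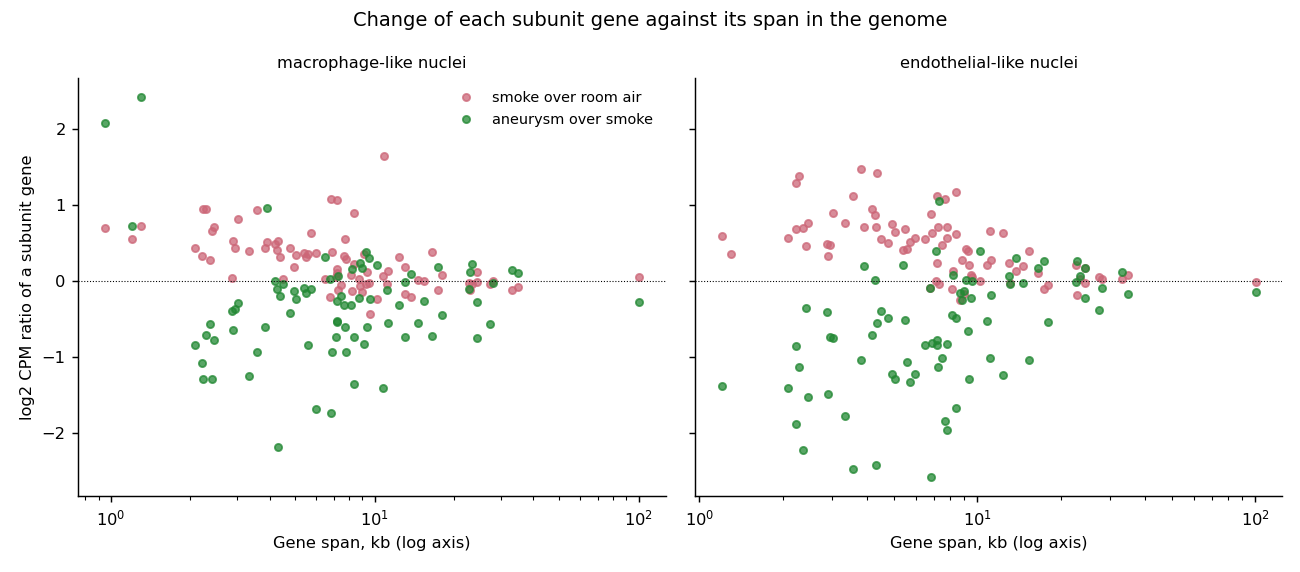
Log2 CPM ratio of each subunit gene against its gene span in kb (log axis) in macrophage-like and endothelial-like nuclei, for smoke over room air (red) and aneurysm over smoke (green). Among genes under 10 kb most red points lie above 0 and most green points below it, except Cox6a2 and Cox6b2 above 2 in macrophage-like nuclei (3 UMIs each in aneurysm), while genes over 20 kb lie near 0.

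**Figure D5:**
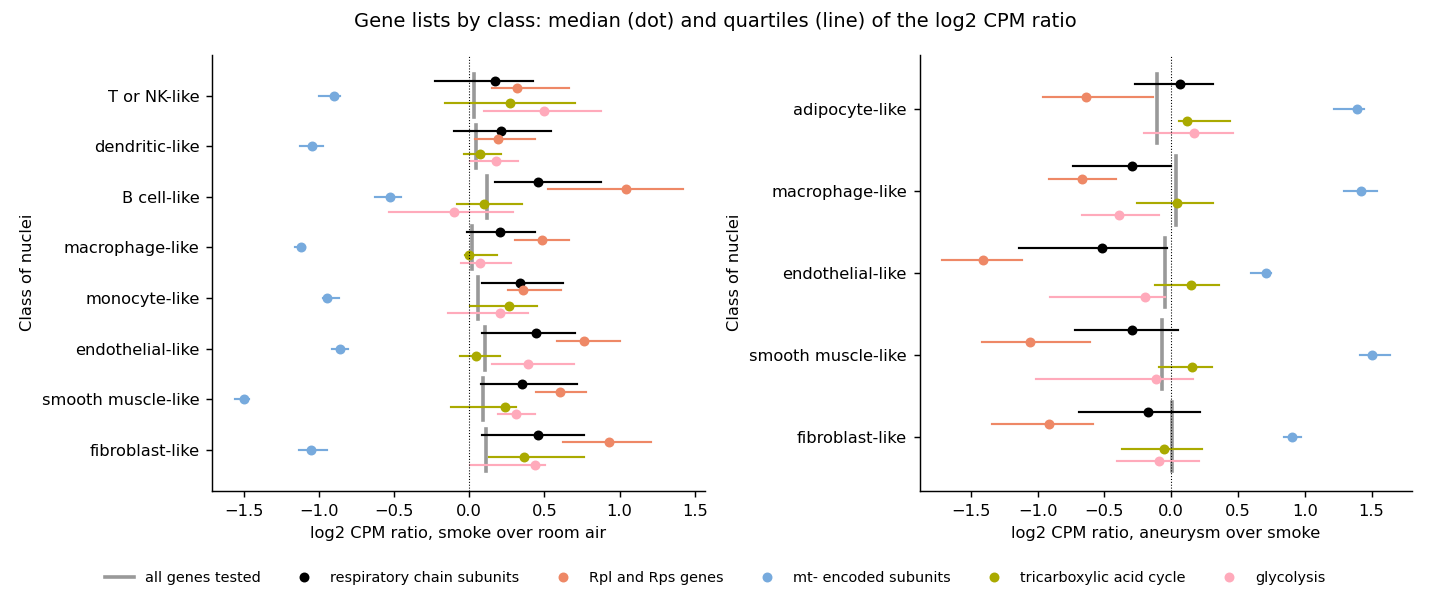
Median (dots) and quartiles (lines) of the log2 CPM ratio of 5 gene lists by class, for smoke over room air (left) and aneurysm over smoke (right); grey bars mark the median of all genes compared. Outside adipocyte-like nuclei, the subunit genes (black) lie on the same side of 0 as the Rpl and Rps genes (orange). The mt- encoded subunits (blue) lie on the other side. In adipocyte-like nuclei the subunit genes and the mt- encoded subunits lie above 0, and the Rpl and Rps genes below it.

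Set beside the smoke library, which it shares with the comparison above, the aneurysm library had lower levels of the members in macrophage-, endothelial- and smooth muscle-like nuclei. The summed level went from 1231 to 1022 CPM in macrophage-like (0.83, 0.79 to 0.87), from 1189 to 941 CPM in endothelial-like (0.79, 0.76 to 0.83) and from 962 to 851 CPM in smooth muscle-like nuclei (0.88, 0.83 to 0.94). In fibroblast-like nuclei it went from 999 to 964 CPM, with an interval of the ratio that includes 1 (0.97, 0.91 to 1.03), and their median log2 ratio of -0.18 over 72 members was 0.27 over the 14 members with at least 100 UMIs. Adipocyte-like nuclei went the other way, from 2443 to 2652 CPM (1.09, 1.05 to 1.13). In their cluster 13 the ratio was 1.40 (1.31 to 1.5), where 27 of 57 members passed 1.5-fold upwards and 2, Cox6a1 and Cox7c, downwards, against 20.6% and 23.8% of all genes, and in cluster 16 it was 1.10 (1.04 to 1.15), with 9 of 66 higher and 5 lower (Ndufc1, Ndufa5, Ndufa3, Atp5g2 and Atp5j), against 16.5% and 23.7%. Ucp1, a marker of cluster 16, was at 5.07 CPM in cluster 13 of the smoke library and 48.4 CPM in that of the aneurysm library, and its part in this difference was not tested.

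In macrophage-like nuclei 26 of 79 members compared were at least 1.5-fold lower in aneurysm, against 17.2% of all genes, and 4 were higher (23.3% of all genes), Atp5k, Ndufs8, Cox6a2 and Cox6b2, the last 2 with 3 UMIs each. Endothelial-like nuclei had 36 of 77 lower (21.7%) and 1 higher, Ndufb4 (10.8%). Smooth muscle-like nuclei had 29 of 78 lower (20.3%) and 5 higher (12.6%), Ndufa8, Ndufb6, Ndufc2, Ndufb7 and Ndufa11. Fibroblast-like nuclei had 20 of 72 lower (20.3%) and 4 higher (14.7%), Ndufs1, Ndufs3, Atp5l and Atp5a1. In adipocyte-like nuclei 6 of 75 were lower (24.2%) and 8 higher (15.1%), both shares below those of all genes. Of 70 members compared in all 5 classes, 15 were below 1 in every class and Ndufs1, Ndufs3 and Atp5l were above 1 in every class. No share over all genes stands beside these counts, so they are not read as a result about the members.

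Complex IV went from 193 to 90.2 CPM in endothelial-like nuclei (ratio 0.47), where complex II went from 111 to 99.6 CPM (0.90). In macrophage-like nuclei complex IV went from 199 to 142 CPM (0.71) and complex II from 148 to 140 CPM (0.94). Cox4i1, the common isoform of complex IV subunit 4, was at 27.4 CPM in macrophage-like nuclei of the smoke library and 8.49 CPM, from 13 UMIs, in the aneurysm library, 3.23-fold lower (1.88 to 6.08). It was at 21.2 CPM in room air, so the aneurysm library was below both. Cox7c was at 39.6 and 22.2 CPM in macrophage-like nuclei (1.79-fold lower, 1.27 to 2.58), at 42.9 and 16.2 CPM in endothelial-like (2.65-fold lower, 1.93 to 3.74) and at 26.9 and 13.4 CPM in smooth muscle-like nuclei (2.00-fold lower, 1.21 to 3.54). In endothelial-like nuclei Ndufa1 and Ndufc1 had 3 UMIs each in aneurysm, 5.56-fold (1.86 to 27.3) and 5.34-fold (1.79 to 26.3) lower. Cox6a1 was 3.42-fold lower there (1.77 to 7.57). In macrophage-like nuclei Atp5j2 was 2.56-fold lower (1.29 to 5.95). Ndufa13 and Atp5md had 1 UMI each in fibroblast-like nuclei of the aneurysm library, so their ratios of 0.074 and 0.085 have wide intervals, 0.00183 to 0.438 and 0.00209 to 0.509. Atp5g1 had 62 UMIs in smooth muscle-like nuclei of the smoke library and none in those of the aneurysm library.

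Here too the Rpl and Rps genes moved in the same direction, with median log2 ratios of -0.67 in macrophage-like, -1.41 in endothelial-like, -1.05 in smooth muscle-like and -0.91 in fibroblast-like nuclei. In adipocyte-like nuclei the Rpl and Rps median was -0.64, while that of the members was 0.07. The mt- encoded subunits were higher in aneurysm, with medians of 1.42, 0.71, 1.5, 0.9 and 1.39 in these 5 classes. The macrophage-like class was made up of different clusters, since cluster 15, led by F13a1 and Cd163, held 338 of 745 macrophage-like nuclei in aneurysm and 230 of 5086 in smoke. Within clusters the member ratios were 0.96 (0.85 to 1.08) in cluster 0, 0.80 (0.72 to 0.88) in cluster 1, 0.81 (0.72 to 0.91) in cluster 5 and 0.95 (0.86 to 1.05) in cluster 15. The lower level thus held in clusters 1 and 5, and in clusters 0 and 15 the interval includes 1. Endothelial-like nuclei were mostly cluster 2 in aneurysm, 492 of 661, and its ratio was 0.78 (0.74 to 0.81). Ucp1 was also found outside adipocyte-like nuclei, at 11 CPM in the aneurysm library, against 0.5 CPM in room air and 0.851 CPM in smoke. These levels include unnamed clusters, and doublets were not removed. The source of this RNA, and the part of adipocyte RNA in the member levels of other classes, were not tested.

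The aneurysm library was also set beside room air, in a comparison that shares its libraries with the others. The summed ratio of aneurysm over room air was 0.90 (0.86 to 0.95) in macrophage-like, 0.95 (0.91 to 0.99) in endothelial-like, 1.03 (0.96 to 1.10) in smooth muscle-like and 1.19 (1.10 to 1.28) in fibroblast-like nuclei. The median log2 ratio of the members in fibroblast-like nuclei, 0.31, was -0.0018 with a naming margin of 0.25, and that in smooth muscle-like nuclei, 0.03, kept its sign under 5 of 14 alternatives. In macrophage-like nuclei 14 of 77 members compared were at least 1.5-fold lower (15.4% of all genes) and 2 higher, Atp5k and Ndufs8 (21.5%). Endothelial-like nuclei had 19 of 77 lower (15.4%) and 5 higher (13.6%), Atp5h, Ndufb4, Ndufa11, Ndufs8 and Ndufv1. Smooth muscle-like nuclei had 12 of 66 lower (14.3%) and 6 higher (13.5%), near the background. Fibroblast-like nuclei had 9 of 39 higher (18.9%) and 1 lower, Ndufa9 (13.4%). Ndufs3 was at 11.3 and 29.3 CPM there (2.59, 1.5 to 4.62) and Ndufs1 at 27.4 and 49.9 CPM (1.82, 1.25 to 2.67). Cox4i1 in macrophage-like nuclei was 2.50-fold lower than in room air (1.45 to 4.71), and Cox7c in endothelial-like nuclei 1.78-fold lower (1.29 to 2.53).

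The level of the members also followed that of the ribosomal protein genes from class to class. Across 33 combinations of class or cluster and library without adipocyte-like nuclei, Spearman's correlation of the summed member level with the Rpl and Rps level was 0.91, and with the mt- share -0.05. With the adipocyte-like points of the smoke and aneurysm libraries it was 0.71 over 35. These points share libraries and depth, and the values are descriptions. Endothelial-like nuclei of the smoke library went from 950 CPM of members at under 0.25% mt- UMIs to 1590 CPM at 2 to 5%, while their Rpl and Rps level went from 1848 to 6422 CPM. Macrophage-like nuclei of that library went from 1167 to 1601 CPM over the same limits. In the aneurysm library endothelial-like nuclei stayed between 876 and 983 CPM across these limits, and adipocyte-like nuclei went from 2776 to 2177 CPM. Adipocyte-like nuclei with under 0.25% mt- UMIs were at 2447 CPM in the smoke library, against 1167 CPM in macrophage-like nuclei of the same limits. Cluster 3, an unnamed shallow cluster with Igkc and Cbx7 as leading genes, was at 1658, 2605 and 1234 CPM, and its Rpl and Rps level of 4890, 11545 and 2925 CPM was above that of macrophage-like nuclei in each library.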

How the data were processed

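Nuclear RNA was counted in 3 single-nucleus libraries, 1 per group. What the authors deposited are UMI counts for each gene in each barcode, neither scaled nor corrected. Per the file headers the software was cellranger 8.0.1, whereas Cell Ranger 2.2.0, STAR and mm10 stand in the submitters' processing notes. This was not resolved, and neither strand nor intron settings are stated. The members, gene lists and comparisons were chosen with earlier results of these data known.

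Barcodes needed 500 UMIs, 300 genes and under 5% mt- UMIs, which left 30730 of 35396. In scanpy 1.11.5 each nucleus was brought to 10000 UMIs and logged. From 2000 variable genes (members, mt-, Rpl and Rps genes left out), 30 principal components and 20 nearest neighbours, a Jaccard-weighted graph was clustered by the Leiden method of python-igraph 0.11.9 at resolution 1, without integration of libraries, into 29 clusters. Clusters were named from marker lists (score 0.5, margin 0.5, at least 3 markers detected in 5% of nuclei, no more foreign than own markers among the top 10 genes, at least 1 own marker there if shallow). The margin, and the merging of the white and brown adipocyte lists, were set after seeing the data. Doublets were not removed: Scrublet called 367, 404 and 1 barcodes, and in the aneurysm library, at 0.0175%, it did not work.

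For CPM, the UMIs of a gene in all nuclei of 1 class and library were added and set against all their UMIs. A class needed 50 nuclei on both sides and a gene 20 UMIs in both together. A gene at 0 was set at a floor of 3 counts for medians. "Higher" and "lower" by counts mean at least 1.5-fold. Intervals are at 95% (scipy 1.17.1). With 1 library per group no test across samples exists, and the ratio code was tested on simulated data. Named members are the 3 with the highest CPM per complex, the isoform pairs, those at the UMI limit, and per class and comparison up to 4 per direction whose interval bound was at least 1.2-fold from 1 with at least 30 UMIs. Others are named where the text says that they were chosen after their values were seen, or where a count is 5 or fewer. Spans come from GENCODE M21 by Ensembl identifier, found for all 82 members, and promoters from RefSeq. Protein sequences were not used here. Alternatives changed filters, clustering, denominator, thinning to 500 UMIs, gene minimum and fold.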

Additional observations from a re-analysis of the deposited data

Results flagged for a closer look

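The summed member ratio of aneurysm over smoke in adipocyte-like nuclei, 1.09, lay above 1, while those of macrophage-, endothelial- and smooth muscle-like nuclei lay below it, at 0.83, 0.79 and 0.88. The difference between the classes was not tested, since each library is single.

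Barcodes with at least 5% mt- UMIs were in none of the comparisons. There were 2063 of them in the room air library, with the members at 1297 CPM (1267 to 1327), against 1076 CPM in kept nuclei. The 835 of the smoke library were at 2090 CPM (2015 to 2166), against 1229 CPM in kept nuclei. In the aneurysm library 1504 such barcodes were at 1133 CPM (1094 to 1173), against 1295 CPM. Their Rpl and Rps levels, 4288, 9606 and 2873 CPM, were above those of kept nuclei in each library.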

How the results depend on the processing

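The median log2 ratio of the members in each class and comparison was recomputed under 7 to 15 alternatives, with no value where an alternative left under 50 nuclei of a class. Under those that gave a value, all 12 medians of adipocyte-like over other nuclei kept their sign, from 0.44 to 1.78, as did those of smoke over room air in 7 classes, from 0.087 to 0.58, those of aneurysm over smoke in macrophage-, endothelial-, smooth muscle- and adipocyte-like nuclei, and those of aneurysm over room air in macrophage- and endothelial-like nuclei. In smooth muscle-like nuclei the last comparison, near 0, kept its sign in 5 of 14. For smoke over room air in B cell-like nuclei, thinning to 500 UMIs gave -0.051 over 2 members and a gene minimum of 100 UMIs -0.39 from 1, against 0.46 over 27. In T or NK-like nuclei, against 0.17, a minimum of 1000 UMIs gave 0.32, 15 principal components 0.27, resolution 2 gave 0.25 and a gene minimum of 100 UMIs 0.25. With that minimum, smoke over room air gave 0.087 in fibroblast-like and 0.16 in smooth muscle-like nuclei, and aneurysm over smoke gave 0.27 in fibroblast-like nuclei, against -0.18, with 14 genes compared in place of 72. Thinning each nucleus to 500 UMIs gave 0.19 in endothelial-like and 0.55 in smooth muscle-like nuclei for smoke over room air, and -0.20 in smooth muscle-like nuclei for aneurysm over room air, against 0.03. A minimum of 1000 UMIs gave -0.20 for the last of these. Clustering libraries one by one gave -0.18 in macrophage-like and -0.53 in smooth muscle-like nuclei for aneurysm over smoke, and -0.21 in smooth muscle-like nuclei for aneurysm over room air. A naming margin of 0.25, added after seeing the data, gave 0.20 in fibroblast-like nuclei for smoke over room air and -0.0018 for aneurysm over room air, against 0.31. Where not stated, the cause was not tested. At a fold of 1.2 in place of 1.5, of 80, 78, 71 and 79 members compared for smoke over room air in macrophage-, endothelial-, fibroblast- and smooth muscle-like nuclei, 39, 48, 43 and 44 were higher (23.9, 33.2, 35.3 and 31.2% of all genes), against 13, 28, 32 and 23 at 1.5. In the same order, 1, 0, 3 and 5 were lower (14.7, 9.96, 15.7 and 12.3% of all genes), against 0, 0, 0 and 1. In monocyte-, dendritic-, T or NK- and B cell-like nuclei, of 76, 77, 59 and 27, 41, 37, 19 and 20 were higher (30, 28.1, 31.2 and 39.7% of all genes), against 22, 16, 9 and 13, and 5, 12, 15 and 3 were lower (16.9, 17.3, 25.4 and 24.7% of all genes), against 2, 2, 9 and 1. For aneurysm over smoke in the first 4 classes, of 79, 77, 72 and 78, 7, 6, 15 and 12 were higher (35.8, 25.5, 31.2 and 26.2% of all genes), against 4, 1, 4 and 5, and 43, 47, 32 and 40 were lower (31.3, 35.6, 33.4 and 35.6% of all genes), against 26, 36, 20 and 29. For aneurysm over room air, of 77, 77, 39 and 66, 11, 13, 20 and 22 were higher (34.5, 30, 38.4 and 30% of all genes), against 2, 5, 9 and 6, and 28, 33, 3 and 19 were lower (30.3, 27.3, 24.3 and 28.5% of all genes), against 14, 19, 1 and 12. In adipocyte-like nuclei, of 75 members, 25 were higher (28.5% of all genes) and 19 lower (39.6%) in aneurysm over smoke, against 8 and 6.

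No paired analysis was possible because each group holds 1 library. The aneurysm library limits the depth: its macrophage-like nuclei held 1566 member UMIs, so single members there rest on few UMIs, and a member at 0 was not detectable at this depth.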

Other observations

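Cluster 4, led by Grin2a and left unnamed between fibroblast- and smooth muscle-like markers, was at 975, 979 and 907 CPM in the room air, smoke and aneurysm libraries, and its ratio of smoke over room air was 1.00 (0.97 to 1.04). Within macrophage-like nuclei the smoke over room air ratio was 1.22 (1.19 to 1.25) in cluster 1, led by Fgf13 and Zfp618. It was 1.05 (1.03 to 1.07) in cluster 0 and 1.04 (1.02 to 1.07) in cluster 5. The 68 neuron-like nuclei of the aneurysm library were at 1055 CPM (873 to 1265).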
